A study of Mus musculus with 39 samples.

Results

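The wild type livers of the series were examined for genes whose expression differed from liver to liver although genotype, age and cohort were the same. All 20 wild type arrays of the 39 arrays in the series were taken, the values of the probe sets of a gene were averaged, and the mean of each of the 4 wild type groups was subtracted gene by gene. What remains, called the residual here, is how far a liver lay above or below the other livers of its own group on the log2 scale. The residuals of 18194 genes were used to rank genes by how much they varied and to find which genes varied together, starting from Lcn2, Dbp and Scd1. The means of the groups were not compared, except to check each array against its label.

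The series measured liver RNA on Affymetrix whole-genome mouse arrays in mice lacking Gnmt or Mat1a and in their wild types. The labels give the strain of every wild type as C57B6SJL and its disease status as healthy. There were 5 wild types for the GNMT knockouts at 3 months, 5 at 8 months, 5 for the MAT1A knockouts at 3 months and 5 at 8 months, called here GNMT and MAT1A livers by cohort, and each was a separate array. Sex, litter, feeding state and the hour at which livers were taken are not given in the sources used here, and in whole liver a change in the cells present and a change in RNA per cell cannot be told apart.

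The liver secretes most plasma proteins, and inflammation elsewhere in the body makes hepatocytes raise a set of them, the acute phase proteins, through interleukin 6, STAT3 and C/EBP factors. Hepatocytes also run a daily clock in which BMAL1 (Arntl) and CLOCK drive Dbp, the Per genes and the Rev-erb genes, whose products feed back on them. Fatty acid synthesis follows feeding through SREBP-1c and ChREBP, and a part of the liver's enzymes follows the sex-specific rhythm of growth hormone through STAT5.

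The arrays held liver throughout: Alb, the gene of serum albumin, lay between 14.42 and 14.97 on the log2 scale, and all 21 measured hepatocyte genes of a fixed list lay above the highest array median. Xist, transcribed from the inactive X chromosome, lay between 3.08 and 3.66 in all 20 livers, below every array median. The Y-linked Eif2s3y lay between 5.63 and 6.73, above every array median. Both are as in male liver, while the Y-linked Kdm5d (3.74 to 4.95) lay below the median of each array. Array medians lay between 4.15 and 4.33 in the GNMT cohort and between 4.91 and 4.99 in the MAT1A cohort, so differences in level between the cohorts are not interpreted. Where livers of both cohorts are listed together, the values are printed as they stand. Arrays carry no read depth, and their number limits the precision. Hybridization controls added to every array (18 probe sets) had a median residual SD of 0.117. One array stood against its label. Of 324 genes that differed by at least 1 between the ages in the GNMT wild types, the MAT1A 3-month liver 1 lay nearer to the other livers of its own age for 44.8%, against 63.6% to 90.9% of the genes tested so in each of the other 19 livers. Over all genes its correlation was 0.992 with the mean of the other MAT1A 3-month livers and 0.994 with the mean of the MAT1A 8-month livers, the only array of the 20 closer to the other age. It was kept under its label, and where leaving it out ended a call or moved a count by over 1.5 times, the value without it is given.

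Most genes hardly differed between livers of a group. The residual SD, pooled over groups with 16 degrees of freedom, had a median of 0.148 and a 95th percentile of 0.294. It reached 0.5 for 190 genes, 1.04% of all, and 1 for 30 genes, 0.165%. Lcn2, whose product lipocalin 2 binds bacterial siderophores, came first with 1.96. It was followed by Saa3, an acute phase serum amyloid A (1.86), Dmbt1, a secreted scavenger receptor protein of bile duct and gut epithelium (1.86), Moxd1, a monooxygenase-like gene with higher expression in male mouse liver (1.80), Orm2, an acute phase orosomucoid (1.76) and Saa2 (1.55). Next came Gadd45a (1.45) and Gadd45g (1.26), growth arrest and DNA damage genes, Egr1, an immediate early transcription factor (1.23), and Cyp4a14, a fatty acid hydroxylase (1.23). Dbp stood at rank 40 with 0.865, the gene next below at 0.864, and Scd1 at rank 1834 with 0.24. Hepatocyte genes lay at the other end, with a median SD of 0.0752 and 0 of 21 at 0.5 or above, and Alb varied by 0.024. That is less than the smallest SD of a hybridization control, 0.043. A limit of the signal at levels as high as that of Alb was not tested. Acute phase proteins had 15 of 40 measured genes at 0.5 or above and immediate early and stress genes 16 of 33, against the 1.04% of all genes.

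Lcn2 had an SD of 2.17, 0.59, 3.18 and 0.51 in the GNMT 3-month, GNMT 8-month, MAT1A 3-month and MAT1A 8-month livers. Without MAT1A 3-month liver 1, Dmbt1 came first (1.92), Lcn2 was at rank 3 (1.60), Moxd1 at rank 9 (1.23), and the SD of Saa1 was 0.651 in place of 1.08.

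The 100 most variable genes were clustered by the correlation of their residuals, with an average correlation of 0.6 as the limit of a cluster, and 59 of them fell into 10 modules of at least 3 genes. The largest, of 17 genes, held Lcn2, Saa1, Saa2, Saa3, Orm2, Orm3 and Prtn3, the gene of the neutrophil protease proteinase 3, with a median correlation of 0.78 between its genes. A module of 10 genes held the immediate early genes Egr1, Fos, Jun, Junb, Ier2, Btg2 and Nr4a1 (0.72), and one of 6 held Gadd45a, Atf3, Dusp6, Efna1, Nr0b2 and Maff (0.80). The others were led by Cish, Cyp4a14, Gadd45g, S100a9, Cyp2b9, Onecut1 and Ppp1r3c, with 3 to 5 genes each. Over all pairs of the 18194 genes the median correlation was 0.003. The genes were chosen and clustered on the same residuals, so these values describe the modules and test nothing. Membership depended on single livers. Lcn2 kept all 16 of its partners in 8 of the 20 clusterings that left out 1 liver, MAT1A 3-month liver 1 among them, 7 without GNMT 3-month liver 5, and 2 without GNMT 8-month liver 2 or 3, MAT1A 3-month liver 3 or 5, or MAT1A 8-month liver 1, 3 or 5. Egr1 kept 1 of 9 without MAT1A 8-month liver 1 or 4, Gadd45a 0 of 5 without GNMT 3-month liver 4 and Cyp4a14 0 of 3 without GNMT 8-month liver 1 or 5. Without MAT1A 3-month liver 1, Cish kept 0 of 4, Gadd45g 0 of 3 and Cyp4a14 1 of 3. Gadd45g also kept 0 of 3 without GNMT 3-month liver 2 or MAT1A 3-month liver 2.

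**Figure D1:**
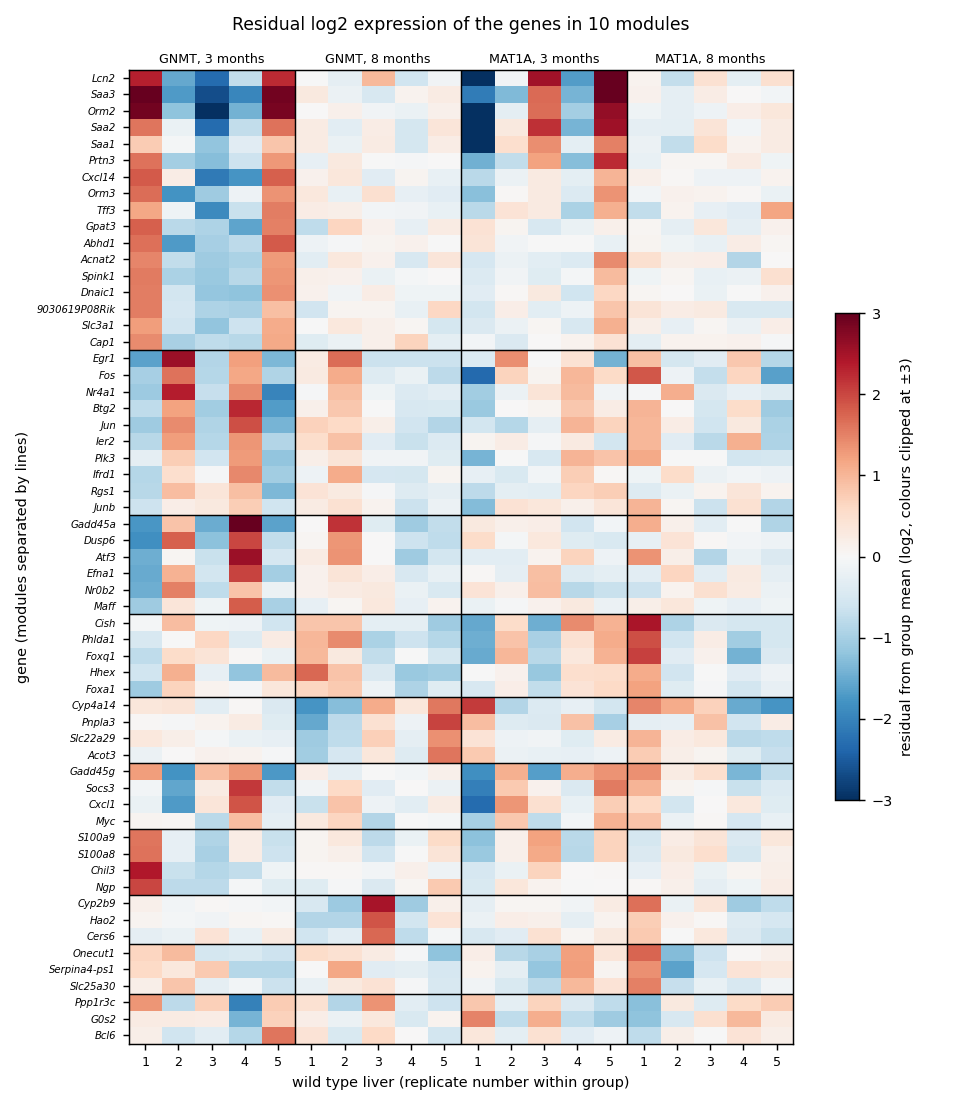
Residual log2 expression of the 59 module genes (rows, modules separated by lines) in each of the 20 wild type livers (columns, by group and replicate number), with red above and blue below the group mean and colours clipped at 3. The Lcn2 module had its strongest colours in single 3-month livers, and the Cyp2b9 module in GNMT 8-month liver 3 and MAT1A 8-month liver 1.

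Lcn2 split the young livers. In GNMT 3-month livers 1 to 5 its level was 11.88, 8.01, 7.23, 8.80 and 11.79, and in the GNMT 8-month livers 7.41, 7.15, 8.39, 6.81 and 7.30. The MAT1A 3-month livers had 5.06, 9.27, 11.88, 7.70 and 12.95, and the MAT1A 8-month livers 5.25, 4.44, 5.62, 4.86 and 5.64. Livers 1 and 5 of the first group and livers 3 and 5 of the third were the highest of their groups.

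A model in limma with the 4 groups as terms gave the slope of each of the other 18193 genes on Lcn2. At an adjusted p under 0.05 there were 49 genes rising with Lcn2, 0.269% of those tested, and 14 falling, 0.077%. At an unadjusted p under 0.05 they were 4.53% and 3.68%. Of the 39 other acute phase genes measured, 17 rose with Lcn2 and 0 fell, and the median correlation of the list was 0.68 against 0.015 over all genes. At the unadjusted threshold 25 of them rose and 1 fell.

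Saa2, an acute phase serum amyloid A carried by high density lipoprotein, followed Lcn2 most closely. Its level was 13.78, 11.97, 9.87, 11.44 and 13.80 in the GNMT 3-month livers and between 8.18 and 9.07 in the GNMT 8-month livers. For the MAT1A 3-month livers it was 8.20, 12.11, 14.00, 10.42 and 14.37, with 7.47 to 8.14 in the MAT1A 8-month livers. The same 4 livers were highest. It rose by 0.76 ± 0.046 (SE) for each step of 1 in Lcn2 (r = 0.97, adjusted p = 8.81e-09, limma, 20 livers), and r was 0.92 in the GNMT and 0.99 in the MAT1A cohort. Saa1 and Saa2 are near copies, as are the Orm genes, so their probe sets may share signal.

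Orm2 rose by 0.84 ± 0.073 per unit of Lcn2 (r = 0.93, adjusted p = 3.44e-06) and Saa3 by 0.83 ± 0.10 (r = 0.88). The slopes of Saa1 (0.50), Orm3 (0.39) and Serpina3n, a protease inhibitor (0.25), were smaller. The RNA of proteins present in plasma at all times moved by little but with tight correlation. Hp, haptoglobin, rose by 0.097 per unit (r = 0.90) and Hpx, hemopexin, which binds free haem, by 0.054 (r = 0.93). Levels of Hp, at 12.95 to 14.43, came close to those of Alb, at 14.42 to 14.97, and a limit of the signal there was not tested. Lrg1 (0.18) and Lbp, which presents bacterial lipopolysaccharide (0.18), lay between in slope. Fgl1, Itih3, Itih4, Apcs, Orm1, Steap4 and Tifa completed the 17. Hamp, the iron hormone hepcidin, did not follow (r = -0.21), nor did Cd14 (r = 0.02), and Vnn1 had r = -0.57 with an unadjusted p under 0.05.

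Genes outside the list rose as well. Prtn3 was at 7.66, 5.01, 4.75, 5.41 and 7.33 in the GNMT 3-month livers, at 5.31, 6.0, 7.94, 5.47 and 8.98 in the MAT1A 3-month livers and at 5.07 or lower in every 8-month liver. The 4 livers highest for Lcn2 were highest for it (slope 0.50 ± 0.050, r = 0.92). Prg4, lubricin (slope 0.27), Tmem176a (0.17) and Tmem176b (0.12), Il13ra1, a receptor chain for interleukin 13 (0.078), and Myd88, the adaptor of Toll-like receptors (0.068), also rose. Moxd1 rose by 0.68 ± 0.14 (r = 0.74, adjusted p = 0.040), but it was called in 13 of the 20 limma fits that left out 1 liver, with an adjusted p of 0.416 without MAT1A 3-month liver 1, and its correlation was 0.48 in the GNMT cohort.

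**Figure D2:**
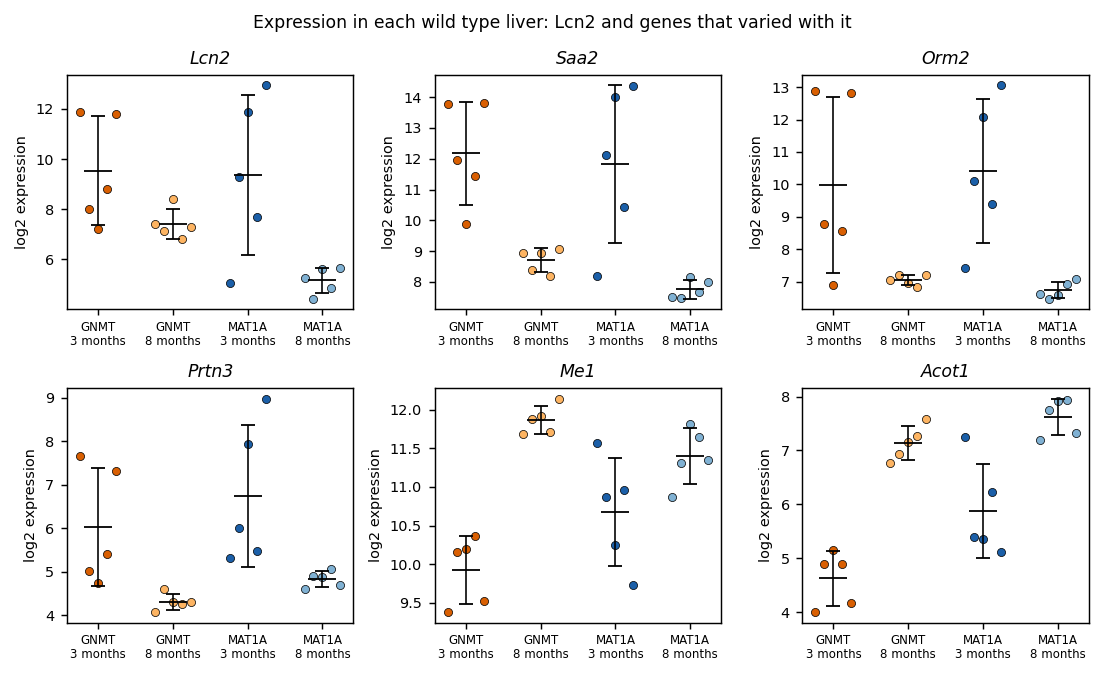
Log2 expression (vertical axis) of Lcn2, Saa2, Orm2, Prtn3, Me1 and Acot1 in each wild type liver, by group on the horizontal axis, with the mean and SD of 5 livers as bars. In each 3-month group the 2 livers highest for Lcn2 are the lowest 2 for Me1 and for Acot1.

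Marker genes of other cell types were set against Lcn2. Of 22 macrophage and Kupffer cell markers, Mpeg1, the pore protein perforin 2, was called (slope 0.15, r = 0.81) and 12 rose at an unadjusted p under 0.05, with a list median of 0.51. C1qb (0.72), Cd5l (0.70) and Vsig4 (0.67) were among the highest and Adgre1, which encodes F4/80, had r = 0.23. The mean of that list had r = 0.63 with Lcn2 and lay between 7.11 and 7.63 in the GNMT 3-month livers, 6.87 and 7.40 in the GNMT 8-month, 7.91 and 8.40 in the MAT1A 3-month and 7.63 and 8.11 in the MAT1A 8-month livers. Of 15 neutrophil markers, 0 were called and 6 rose at the unadjusted threshold (3 without MAT1A 3-month liver 1, with a list median of 0.14 in place of 0.36), and their mean (r = 0.59) spanned 5.24 to 6.22, 4.98 to 5.34, 5.11 to 5.85 and 5.38 to 5.62 in the same order. Elane, Camp, Mpo and Cxcr2 were among the 9 neutrophil markers not above the array medians. Hbb-b2, a beta globin, rose with Lcn2 (slope 0.12) but was called in 13 of the 20 fits with 1 liver left out and not without MAT1A 3-month liver 1. Of 8 erythroid markers 2 rose at the unadjusted threshold, with a list median of 0.25. Their mean (r = 0.59) spanned 4.58 to 4.95, 4.45 to 4.60, 5.09 to 5.26 and 5.08 to 5.32, with 5 of the 8 not above the array medians. Ccr2, Itgam and Itgax were the 3 macrophage markers not above them. The part of these cells in the acute phase slopes was not tested.

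Of the 14 genes that fell, 2 were on the fatty acid synthesis list and 1 on the PPAR alpha list. Acot1, a cytosolic acyl-CoA thioesterase and target of PPAR alpha, was at 4.00, 4.89, 5.15, 4.90 and 4.17 in the GNMT 3-month livers, lowest where Lcn2 was highest. Its values in the MAT1A 3-month livers were 7.26, 5.40, 5.36, 6.23 and 5.12. It fell by 0.24 ± 0.034 per unit of Lcn2 (r = -0.86, adjusted p = 0.00093). Me1, malic enzyme, which makes NADPH for fatty acid synthesis, had 9.38, 10.15, 10.19, 10.37 and 9.52 in the GNMT 3-month livers and 11.57, 10.87, 10.24, 10.96 and 9.74 in the MAT1A 3-month livers. Both cohorts had their lowest values in the livers of highest Lcn2, and Me1 fell by 0.19 ± 0.031 (r = -0.83, adjusted p = 0.0038).

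Of 29 genes of fatty acid synthesis and desaturation, 2 fell (Me1 and Aacs, which activates acetoacetate), 16 fell and 1 rose at an unadjusted p under 0.05, and 28 slopes were negative, with a median correlation of -0.47. Elovl2 (-0.76) and Elovl6 (-0.68), fatty acid elongases, and Fasn, fatty acid synthase (-0.66), were next. Genes of PPAR alpha and fatty acid oxidation had a median of -0.42 with 1 of 34 called and 13 falling at the unadjusted threshold, Fabp1, the liver fatty acid binding protein, at -0.82 among them. Xenobiotic genes had 8 of 25 and cholesterol synthesis 7 of 21 falling at that threshold, and 0 called. Without MAT1A 3-month liver 1 those falling were 10 of fatty acid synthesis, 8 of PPAR alpha and 4 of cholesterol synthesis. Igfbp2, an IGF binding protein (slope -0.14), and the carboxylesterases Ces1e (-0.23) and Ces1f (-0.18) also fell.

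How much of this rests on single livers was checked. In place of 63, the number of genes called was 24 without MAT1A 3-month liver 5, 36 without GNMT 3-month liver 1 and 48 without MAT1A 3-month liver 1. Of the 63 themselves, 24, 36 and 35 were called in these fits, and 23 were called in each of the 20 fits that left out 1 liver. Among the genes named above, Moxd1, Hbb-b2, Me1, Aacs, Igfbp2, Ces1e, Ces1f, Il13ra1, Myd88, Hpx, Steap4 and Tifa were not called without MAT1A 3-month liver 1. The median correlation without it was 0.60 for acute phase genes, of which 14 were called, -0.32 for fatty acid synthesis, of which 0 were called, and -0.24 for PPAR alpha genes. Within the GNMT cohort alone 40 genes were called and within the MAT1A cohort alone 27. Of the 63, 22 were called in the GNMT cohort, 18 in the MAT1A cohort and 11 in both, and all 63 slopes kept their sign in each. Without the 4 livers of highest Lcn2, 2 of the 63 were called and all 63 kept their sign. Among the 10 livers of 8 months 0 genes were called and 48 of the 63 kept their sign.

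Promoters of the Lcn2 module were read to show what the genes of the largest module have in common in sequence. The windows run from 250 bases before to 50 bases after the start of transcription and come from RefSeq on GRCm38.p6, and 13 of the 17 genes matched one. The C/EBP motif TTGCNNAA, searched on both strands, was present in 8 of the 13 genes, namely Lcn2, Saa1, Saa2, Saa3, Orm2, Orm3, Acnat2 and Slc3a1, and in 10.8% of all 32851 windows. In the acute phase list it was present in 15 of 33. The STAT motif TTCNNNGAA, also on both strands, was present in 2 of the 13 (Cap1 and Cxcl14) and in 8.3% of all windows. The windows of Lcn2 (chr2:32387690-32387989, minus strand), Saa2 (chr7:46751583-46751882, plus strand) and Orm2 (chr4:63362199-63362498, plus strand) are printed 5′ to 3′ with the C/EBP match in capitals. Here and below a gene counted when any of its windows matched, while the shares of all windows are per window. Saa1 and Saa2, and the Orm genes, are near copies, so their matches are not independent. A match is a description of the letters and not a site of binding.
Lcn2: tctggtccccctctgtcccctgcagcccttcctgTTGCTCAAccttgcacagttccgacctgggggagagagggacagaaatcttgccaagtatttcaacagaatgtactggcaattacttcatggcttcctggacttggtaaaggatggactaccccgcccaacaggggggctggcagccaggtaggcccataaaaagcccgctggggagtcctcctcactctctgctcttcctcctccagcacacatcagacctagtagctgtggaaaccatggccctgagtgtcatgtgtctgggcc
Saa2: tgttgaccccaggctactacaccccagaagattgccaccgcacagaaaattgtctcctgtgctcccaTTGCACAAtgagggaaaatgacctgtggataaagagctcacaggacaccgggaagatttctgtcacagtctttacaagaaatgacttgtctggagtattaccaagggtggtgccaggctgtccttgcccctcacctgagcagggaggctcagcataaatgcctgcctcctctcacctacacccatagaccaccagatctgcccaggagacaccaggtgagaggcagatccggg
Orm2: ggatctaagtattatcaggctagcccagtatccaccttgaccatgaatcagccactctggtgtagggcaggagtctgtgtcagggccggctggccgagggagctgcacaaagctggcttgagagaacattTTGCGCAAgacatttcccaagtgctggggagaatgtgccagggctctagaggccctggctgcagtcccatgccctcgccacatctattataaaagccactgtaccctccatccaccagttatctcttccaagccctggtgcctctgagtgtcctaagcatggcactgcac

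Dbp, the D-box binding transcription factor under direct control of CLOCK and BMAL1, differed from liver to liver in all groups. Its level was 5.99, 7.90, 8.74, 9.0 and 7.27 in the GNMT 3-month livers and 7.66, 7.26, 6.61, 6.27 and 8.38 in the GNMT 8-month livers. The MAT1A 3-month livers were at 6.26, 7.09, 7.41, 5.69 and 7.69, and the MAT1A 8-month livers at 6.18, 6.96, 6.11, 6.19 and 6.38. The SD of Dbp was 1.21, 0.84, 0.83 and 0.35 in the groups in this order, smallest in the MAT1A 8-month livers. No gene passed an adjusted p under 0.05 in limma, 0% rising and 0% falling of 18193, and the smallest adjusted p was 0.239. At an unadjusted p under 0.05, 3.24% of genes rose with Dbp and 3.94% fell. With the brightest probe set of each gene 3 genes were called, with quantile normalization 1, and without GNMT 8-month liver 4 there were 2.

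The clock genes lay apart in 2 arms. Of the 12 other genes of the arm that peaks with Dbp, all had a positive slope, 8 with an unadjusted p under 0.05, and the median correlation was 0.50 against -0.006 over all genes. Per3 (0.85), Tef, a PAR-domain factor related to Dbp (0.79), Per2 (0.77), Nr1d2, which encodes Rev-erb beta (0.66), Hlf, also a PAR-domain factor (0.56), Usp2, a deubiquitinase (0.53), Ciart (0.47) and Cry2 (0.45) were the 8. Nr1d1, which encodes Rev-erb alpha (0.22), Bhlhe41 (0.23), Bhlhe40 (0.18) and Per1 (0.17) had smaller correlations. The 6 genes of the opposite arm had negative slopes, with a median of -0.39. Arntl (-0.71) and Npas2, a partner of BMAL1 related to CLOCK (-0.64), passed the unadjusted threshold, and Cry1 (-0.40), Clock (-0.38), Nfil3, a repressor at D-boxes (-0.20) and Rora (-0.07) did not. Between the arms 60 of 78 pairs of genes had a correlation below 0, with a median of -0.19 against 0.003 over all pairs of genes. Within the Dbp arm the median over pairs was 0.23, and within the opposite arm 0.33.

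Arntl was at 6.16, 5.65, 5.23, 5.17 and 5.19 in the GNMT 3-month livers, where liver 1 was the highest for Arntl and the lowest for Dbp. In the other groups it was at 5.16 to 5.72, 6.13 to 6.44 and 6.24 to 6.45. Per2 was lowest in the same GNMT 3-month liver 1 (4.33, the others 4.83 to 5.24) and followed Dbp closely in the GNMT cohort (r = 0.95) and less in the MAT1A cohort (r = 0.26). The probe sets of these genes did not all behave alike. Among the 6 of Per3, all dim, the correlation with Dbp ran from 0.03 to 0.69. For Tef it was 0.90 at the brightest and -0.13 at the dimmest, for Per2 0.83 at the brightest, for Arntl -0.78 and -0.25, and for Npas2 -0.69 and 0.18. Without MAT1A 3-month liver 1 the median of the Dbp arm was 0.49 and that of the opposite arm -0.39.

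Of 19 clock output genes 4 rose and 2 fell at the unadjusted threshold, and their median was 0.24. Coq10b had r = 0.60, Wee1, a cell cycle kinase under clock control, 0.48, and Tars, the threonyl-tRNA synthetase, -0.69. Srebf1, which encodes SREBP-1, had r = 0.69 with Dbp, 0.87 in the GNMT and 0.10 in the MAT1A cohort. Acute phase genes had a median of -0.02 with Dbp and fatty acid synthesis genes one of 0.04. Of 19 endothelial markers 3 fell with Dbp at the unadjusted threshold, with a median of -0.15. Their mean had r = -0.41 with Dbp, and its part was not tested.

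The D-box TTANGTAA, which Dbp, Tef and Hlf bind, was searched on both strands in the promoter windows of the Dbp arm, of which 11 of 13 genes matched one. It was present in Per3 alone of the 11, at 2 positions, and in 2.32% of all windows. The E-box CACGTG was present in 4 of the 11 (Bhlhe41, Ciart, Per1 and Tef) and in 7.15% of all windows. The Per3 window (chr4:151044616-151044915, minus strand, GRCm38.p6, RefSeq) is shown because Per3 had the highest correlation with Dbp in the arm, with the matches in capitals.
Per3: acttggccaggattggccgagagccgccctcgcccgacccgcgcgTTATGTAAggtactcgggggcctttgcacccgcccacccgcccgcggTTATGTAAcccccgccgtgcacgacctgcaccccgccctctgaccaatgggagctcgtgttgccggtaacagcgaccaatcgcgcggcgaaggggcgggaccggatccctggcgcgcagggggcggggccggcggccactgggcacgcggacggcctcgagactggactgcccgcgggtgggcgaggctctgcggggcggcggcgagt

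**Figure D3:**
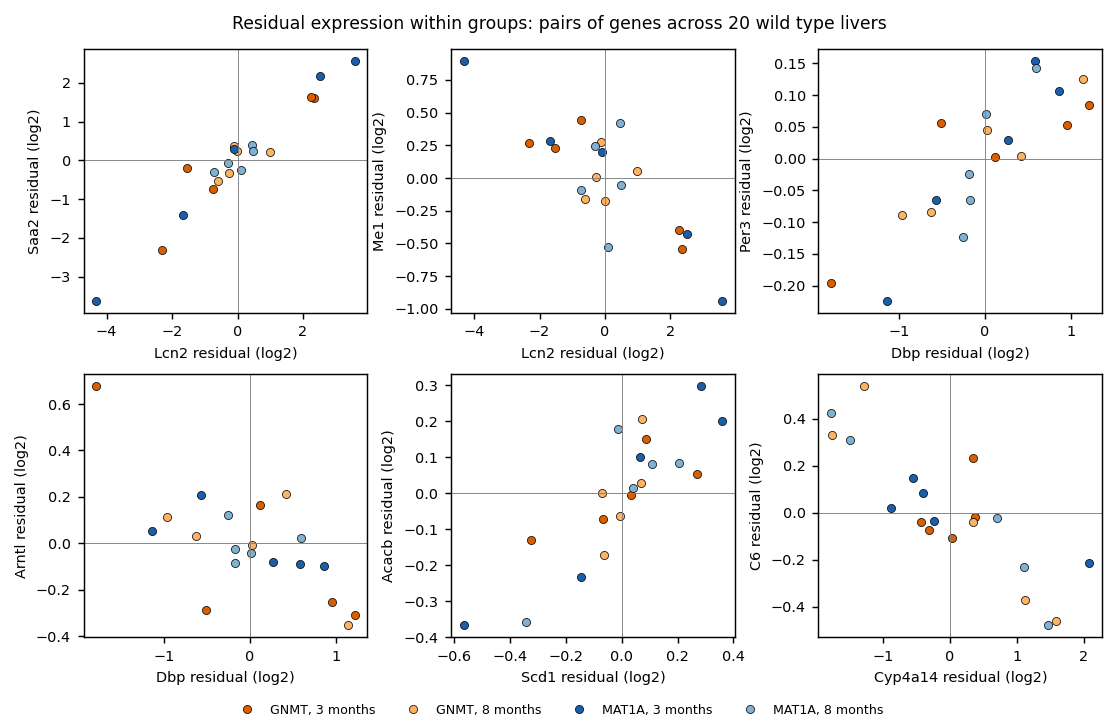
Residuals of pairs of genes (log2, both axes), each point 1 of the 20 wild type livers, coloured by group. The points slope upward for Saa2 on Lcn2, Per3 on Dbp and Acacb on Scd1, and downward for Me1 on Lcn2, Arntl on Dbp and C6 on Cyp4a14.

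Scd1, stearoyl-CoA desaturase, which makes oleate from stearate, varied more than the median gene but less than Lcn2 or Dbp. Its residual SD was 0.24, against a median of 0.148 over all genes. Of its 2 probe sets the brighter (mean level 14.07) had an SD of 0.14 and the dimmer (11.50) one of 0.36. Averaged, Scd1 was at 12.15, 12.25, 11.89, 12.48 and 12.30 in the GNMT 3-month livers and between 12.96 and 13.11 in the GNMT 8-month livers. In the MAT1A 3-month livers it was at 13.02, 13.10, 12.59, 12.80 and 12.17, and in the MAT1A 8-month livers at 12.80, 13.18, 13.12, 13.34 and 13.25. MAT1A 3-month liver 5 and MAT1A 8-month liver 1 lay lowest in their groups. No gene passed an adjusted p under 0.05 in limma (0% rising, 0% falling, smallest adjusted p 0.175, for Acacb), and at an unadjusted p under 0.05 2.3% rose with Scd1 and 1.6% fell. The MAT1A cohort alone gave 3 calls, and the fit without GNMT 3-month liver 3 gave 1.

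Genes of fatty acid synthesis nevertheless ran with it. All 28 other measured members had a positive slope, 18 with an unadjusted p under 0.05, and the median correlation was 0.53 against 0.014 over all genes. The highest were Acacb, acetyl-CoA carboxylase 2 (0.85), Acss2, which activates acetate (0.79), Acly, ATP citrate lyase (0.78), Gpam, the first acyltransferase of triglyceride synthesis (0.73), Fasn (0.72), Pklr, liver pyruvate kinase (0.69) and Me1 (0.67). Khk, ketohexokinase, which starts fructose use, had r = 0.76 outside the list. Cholesterol synthesis genes had a median of 0.17, with 3 of 21 rising at the unadjusted threshold, and PPAR alpha genes one of 0.14. Of the acute phase genes 38 of 40 had a negative slope and 14 an unadjusted p under 0.05, with a median of -0.35, and without MAT1A 3-month liver 1 the 14 became 3.

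Fasn was at 9.79, 10.54, 10.56, 10.97 and 10.40 in the GNMT 3-month livers and at 11.92, 11.85, 12.03, 11.34 and 11.99 in the GNMT 8-month livers. In the MAT1A 3-month livers it was at 12.88, 12.48, 11.84, 11.97 and 11.04, and in the MAT1A 8-month livers at 11.93, 12.52, 12.82, 12.56 and 12.42. In the MAT1A groups the livers lowest for Scd1 were lowest for Fasn, and in the GNMT groups they were not. The correlation with Scd1 was 0.90 in the MAT1A and 0.22 in the GNMT cohort for Fasn, 0.89 and 0.24 for Acly, 0.94 and -0.095 for Gpam, and 0.91 and 0.64 for Acacb. The difference between the cohorts was not tested. Without the 2 livers farthest out for Scd1 (MAT1A 3-month liver 5 and MAT1A 8-month liver 1) r was 0.71 for Acacb, 0.49 for Acly and 0.42 for Fasn. Acacb had 2 probe sets, and the brighter one had r = 0.74 and the dimmer one 0.14 with Scd1. Acly had 6 probe sets, with r from 0.08 at a dim one to 0.77 at the brightest.

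**Figure D4:**
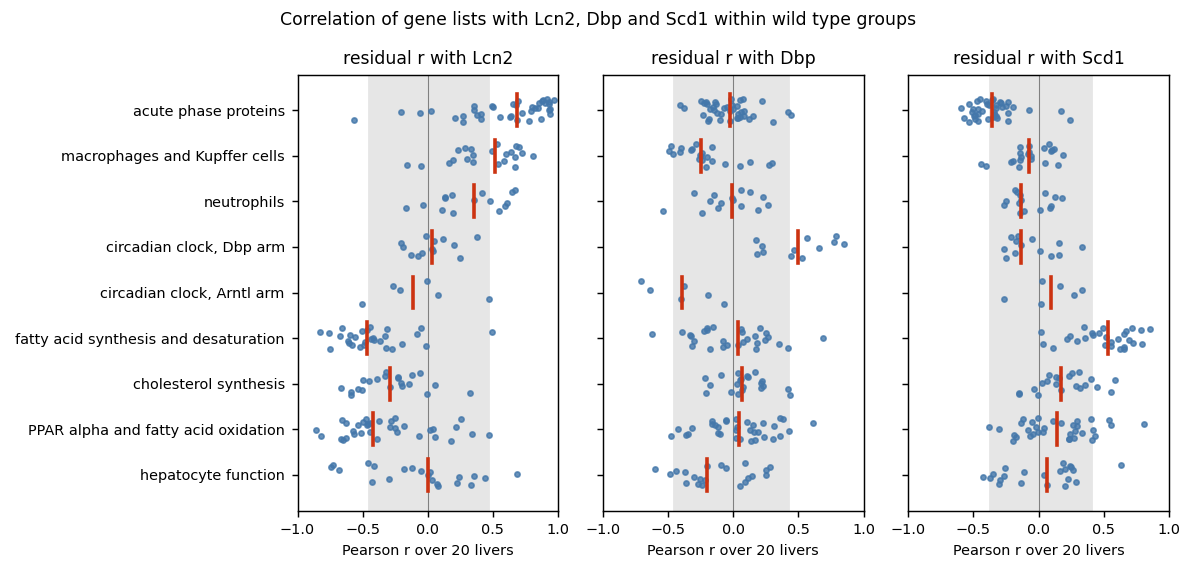
Correlation of residuals with Lcn2, Dbp and Scd1 (horizontal axis, Pearson r over 20 livers) for each member of 9 gene lists (points), with the list median as a red bar and the 5th to 95th percentile of all genes in grey. Acute phase genes lie to the right for Lcn2, the clock arms to opposite sides for Dbp, and fatty acid synthesis to the right for Scd1 and to the left for Lcn2.

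The 3 genes were compared with each other, with residuals permuted within groups 100000 times, two-sided, and p adjusted over the 3 pairs. Lcn2 and Scd1 had r = -0.45 (permutation p = 0.203, adjusted 0.610) and rho = -0.42 (p = 0.140). Without the 2 livers farthest out for Lcn2 r was -0.06. It was 0.21 in the GNMT cohort (exact permutation p = 0.699) and -0.70 in the MAT1A cohort (exact permutation p = 0.0956). Lcn2 and Dbp had r = -0.016 (permutation p = 0.957) and rho = -0.090 (p = 0.743), with -0.66 in the GNMT and 0.72 in the MAT1A cohort (exact permutation p = 0.0940 and 0.132) and -0.33 without the 2 farthest livers. Dbp and Scd1 had r = -0.16 (permutation p = 0.553) and rho = -0.054 (p = 0.834), with 0.095 and -0.43 in the cohorts (exact permutation p = 0.862 and 0.367) and -0.38 without the 2 farthest. No pair passed, and the sign of r differed between the cohorts for each pair. The sign of rho differed for the pairs with Dbp but not for Lcn2 and Scd1 (-0.042 in the GNMT and -0.62 in the MAT1A cohort).

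The other modules of at least 4 genes are described through their most variable gene, chosen after the values were seen, by the share of genes whose residuals correlated with it at 0.5 or above or at -0.5 or below. No test was made of them. Cyp4a14, an inducible fatty acid hydroxylase under PPAR alpha, was at 7.40, 7.88, 10.29, 9.51 and 10.75 in the GNMT 8-month livers and at 10.85, 10.49, 10.08, 7.87 and 7.60 in the MAT1A 8-month livers. In the GNMT 3-month livers it was between 3.88 and 4.69. Among the MAT1A 3-month livers it was at 7.80, 4.83, 5.32, 5.47 and 5.16, so that liver 1 stood alone. Within each 8-month group 2 livers lay well below the other 3.

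With Cyp4a14, 2.74% of all genes had r of 0.5 or above and 3.65% had -0.5 or below. Of 18 genes with higher expression in male mouse liver, 13 had -0.5 or below and 0 had 0.5 or above, with a median of -0.63 against -0.040 over all genes. They included C6, a complement component (-0.86), Cyp7b1, an oxysterol hydroxylase (-0.84), Cyp2d9 (-0.79), Susd4 (-0.73) and Hsd3b5, a steroid reductase (-0.68). Of 18 genes higher in female liver, 6 had 0.5 or above, with a median of 0.42, among them Acot3 (0.84), Abcd2, a peroxisomal transporter (0.83), and Hao2, Cyp39a1 and Cyp2b9 (0.58, 0.58 and 0.53). Of xenobiotic genes 9 of 25 had 0.5 or above, with Cyp2c38 (0.87) and Nqo1 (0.70), and of 33 PPAR alpha genes 7, with Acadm (0.65), medium-chain acyl-CoA dehydrogenase. Slc22a29, an organic anion transporter (0.88), and Serpina6, corticosteroid binding globulin (0.86), were at the top, and Slc22a7, another organic anion transporter, at the bottom (-0.86).

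C6 was at 10.73, 10.94, 10.03, 10.36 and 9.94 in the GNMT 8-month livers and at 10.39, 10.64, 10.85, 11.18 and 11.30 in the MAT1A 8-month livers, the reverse of the order of Cyp4a14 in the second group. Its correlation with Cyp4a14 was -0.84 in the GNMT and -0.90 in the MAT1A cohort, and -0.86 without the 2 livers farthest out for Cyp4a14 (MAT1A 3-month liver 1 and GNMT 8-month liver 5). Without MAT1A 3-month liver 1 alone, 14 of the 18 male-biased genes had -0.5 or below and 6 of the 18 female-biased, 8 of the 25 xenobiotic and 3 of the 33 PPAR alpha genes 0.5 or above. The ratio of 3′ to 5′ control signal, a sign of RNA quality, had r = 0.52 with Cyp4a14, and its part was not tested. Cyp2b9, Hao2 and Cers6, a ceramide synthase, formed a module of their own, highest in GNMT 8-month liver 3 and MAT1A 8-month liver 1, and Cyp2b9 had r = 0.53 with Cyp4a14.

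**Figure D5:**
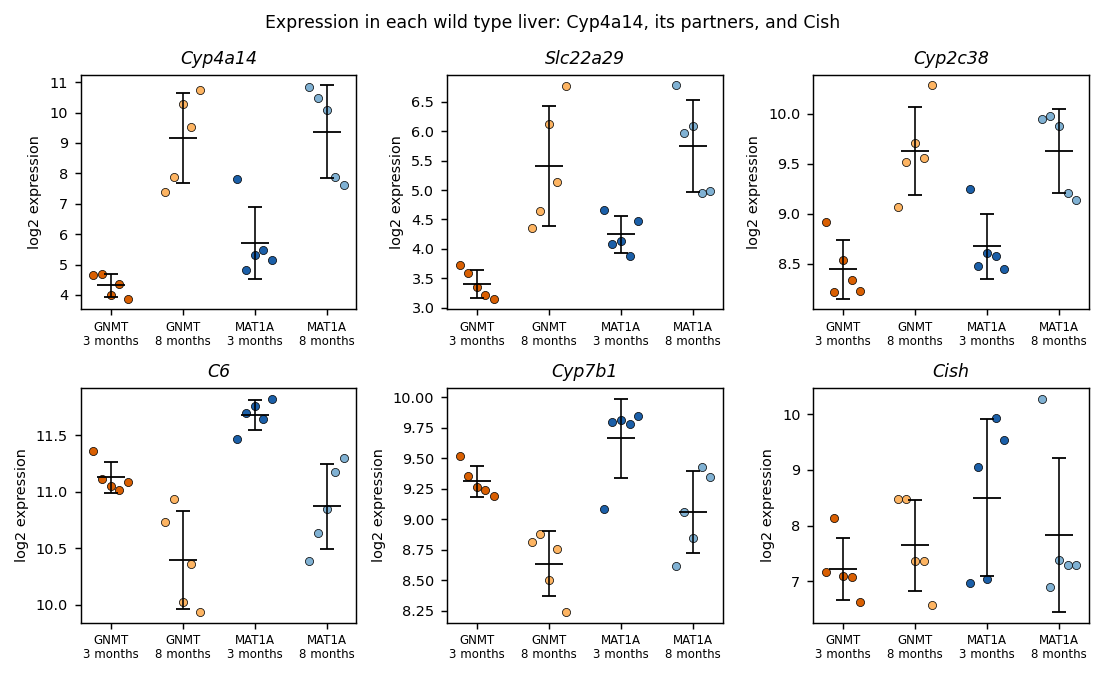
Log2 expression (vertical axis) of Cyp4a14, Slc22a29, Cyp2c38, C6, Cyp7b1 and Cish in each wild type liver, by group on the horizontal axis, with the mean and SD of 5 livers as bars. Within the 8-month groups livers high for Cyp4a14 are high for Slc22a29 and Cyp2c38 and low for C6 and Cyp7b1, and MAT1A 3-month liver 1 stands apart in its group for Cyp4a14, Cyp2c38 and Cyp7b1.

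Cish, a SOCS family inhibitor that STAT5 induces after growth hormone, was at 10.28 in MAT1A 8-month liver 1 and between 6.91 and 7.39 in the other 4 livers of that group. In the MAT1A 3-month livers it was at 6.96, 9.05, 7.04, 9.93 and 9.54, in the GNMT 3-month livers at 7.16, 8.14, 7.10, 7.08 and 6.63 and in the GNMT 8-month livers at 8.47, 8.48, 7.36, 7.36 and 6.58. The MAT1A 3-month livers fell into 3 high and 2 low. Of all genes 1.55% had r of 0.5 or above with Cish and 1.21% had -0.5 or below. Socs2, another STAT5 target, had r = 0.86, with 0.96 in the MAT1A and 0.23 in the GNMT cohort, and it was at 7.03 in MAT1A 8-month liver 1 against 5.13 to 5.42 in the other 4. These values average 6 probe sets of Socs2, whose own r with Cish ran from 0.18 to 0.81. Arid5b (0.86), the forkhead factors Foxq1 (0.85) and Foxa1 (0.79), Phlda1 (0.84) and Onecut1, a hepatocyte factor also called HNF6 (0.75), ran with Cish. Without MAT1A 8-month liver 1 the correlation was 0.76 for Socs2 and 0.63 for Onecut1. Of 33 immediate early and stress genes 9 had 0.5 or above, with a median of 0.43 against -0.004 over all genes, and without MAT1A 3-month liver 1 there were 4, with a median of 0.34.

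The STAT motif TTCNNNGAA was present in 1 of the 3 genes of the Cish module that matched a window, in Cish itself, at 2 positions. The Cish window (chr9:107296409-107296708, plus strand, GRCm38.p6, RefSeq) is shown with both matches in capitals.
Cish: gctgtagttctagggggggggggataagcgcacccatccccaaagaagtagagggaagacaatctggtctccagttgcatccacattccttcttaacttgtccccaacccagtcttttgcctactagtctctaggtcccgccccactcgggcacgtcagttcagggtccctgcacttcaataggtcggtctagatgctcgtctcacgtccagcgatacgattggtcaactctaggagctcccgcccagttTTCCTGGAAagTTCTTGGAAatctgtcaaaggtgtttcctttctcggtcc

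Egr1 was at 7.70, 11.88, 8.43, 10.54 and 7.96 in the GNMT 3-month livers and at 10.07, 11.50, 9.19, 9.19 and 9.19 in the GNMT 8-month livers. In the MAT1A 3-month livers it was at 9.12, 10.92, 9.51, 9.97 and 8.12 and in the MAT1A 8-month livers at 12.23, 10.80, 10.98, 12.15 and 10.49. The spread was widest in the GNMT 3-month livers, where livers 2 and 4 were high. Of all genes 3.01% had r of 0.5 or above with Egr1 and 2.75% had -0.5 or below. Of the 32 other immediate early and stress genes 11 had 0.5 or above, with Ier2 (0.89), Btg2 (0.75), Fos (0.74), Nr4a1 (0.73) and Egr2 (0.69). Heat shock genes of the list did not, with Hspa1b at 0.08 and Hsp90aa1 at -0.03. Of 20 glucocorticoid response genes 8 had -0.5 or below and 1 had 0.5 or above, with a median of -0.35 against 0.010 over all genes. They were Fkbp5, a co-chaperone of the glucocorticoid receptor (-0.76), the metallothioneins Mt2 (-0.66) and Mt1 (-0.51), Tsc22d3, which encodes GILZ (-0.63), Ppp1r3c (-0.57), Bcl6 (-0.53), Zbtb16 (-0.53) and Cdkn1a (-0.52). Fkbp5 had r = -0.84 in the GNMT and -0.55 in the MAT1A cohort, and -0.93 in the 3-month and -0.16 in the 8-month livers. For Nr4a1 r was 0.95 in the GNMT and 0.08 in the MAT1A cohort, and for Ppp1r3c -0.72 and -0.21. The 2 livers farthest out for Egr1 were GNMT 3-month liver 2 and GNMT 8-month liver 2. Without them r was 0.86 for Ier2, 0.73 for Btg2, 0.66 for Fos, 0.52 for Nr4a1 and 0.60 for Egr2. For Fkbp5, Mt2, Tsc22d3 and Ppp1r3c it was then -0.60, -0.41, -0.70 and -0.52.

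Gadd45a had r = 0.70 with Egr1 and a module of its own. It was at 9.56 in GNMT 3-month liver 4 and between 3.83 and 6.43 in the other 4, at 7.99, 10.15, 7.61, 6.92 and 7.24 in the GNMT 8-month livers, and between 5.71 and 7.91 in the MAT1A livers. Of all genes 3.3% had r of 0.5 or above and 3.06% had -0.5 or below. Of 33 immediate early and stress genes 15 had 0.5 or above, led by Atf3, a stress-induced factor (0.89), Btg2 (0.83) and Ier3 (0.82). Ddit3, which encodes CHOP, had 0.72. Tsc22d3 had r = -0.84. Much of this lay in the GNMT cohort: r with Atf3 was 0.96 there and 0.56 in the MAT1A cohort, and without GNMT 3-month liver 4 it was 0.76. That liver was also the highest for Dmbt1 (9.39) and Krt19, a bile duct keratin (6.94, the other 4 livers 4.61 to 5.48). Of 12 cholangiocyte and gall bladder markers 2 had 0.5 or above with Gadd45a, with a median of 0.18, while their mean had r = 0.77. It spanned 4.11 to 4.58 in the GNMT 3-month, 4.04 to 4.21 in the GNMT 8-month, 4.69 to 4.80 in the MAT1A 3-month and 4.69 to 4.91 in the MAT1A 8-month livers, and 11 of the 12 markers, Krt7, Epcam and Sox9 among them, were not above the array medians. Their part in the Gadd45a values was not tested.

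Gadd45g was at 10.12, 7.07, 9.80, 10.20 and 7.15 in the GNMT 3-month livers and at 7.35, 10.24, 7.53, 10.28 and 10.52 in the MAT1A 3-month livers. In the MAT1A 8-month livers it was at 10.13, 9.01, 9.26, 7.38 and 8.01, while the GNMT 8-month livers lay together between 10.38 and 10.85. In each 3-month group 3 livers were high and 2 were low. Of all genes 2.71% had r of 0.5 or above and 3.42% had -0.5 or below. Cebpd, an acute phase transcription factor (0.85), and Socs3, the feedback inhibitor of interleukin 6 signalling (0.74), ran with it, while Saa2 (0.05), Orm2 (0.00) and Lcn2 (0.14) did not. Of 40 acute phase genes 4 had 0.5 or above, with a median of 0.26 against -0.021 over all genes, and without MAT1A 3-month liver 1 there were 2, with a median of 0.15. Tbx3 (-0.84), G0s2, an inhibitor of triglyceride lipase (-0.78), and Angptl8, a feeding-induced inhibitor of lipoprotein lipase (-0.78), ran against it. Without the 2 livers farthest out for Gadd45g, MAT1A 3-month liver 1 and GNMT 3-month liver 2, r was 0.77 for Cebpd and 0.59 for Socs3.

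S100a9, a subunit of the neutrophil protein calprotectin, was at 10.54, 8.70, 8.03, 9.18 and 8.26 in the GNMT 3-month livers and at 6.21, 7.58, 8.63, 6.62 and 8.10 in the MAT1A 3-month livers. It spanned 7.86 to 9.21 in the GNMT 8-month and 6.44 to 7.36 in the MAT1A 8-month livers. GNMT 3-month liver 1 was the highest of the GNMT cohort. Of all genes 3.12% had r of 0.5 or above and 2.47% had -0.5 or below. S100a8, the other subunit, had r = 0.99, Mmp8, neutrophil collagenase, 0.79 and Ngp, a granule protein, 0.71. Of the 14 other neutrophil markers 8 had 0.5 or above, with a median of 0.51, and Cxcr2 (0.01) and Elane (0.00) did not follow. Of 40 acute phase genes 13 had 0.5 or above (7 without MAT1A 3-month liver 1), and Lcn2, which neutrophils also make, had r = 0.65. Gsta2, a glutathione transferase, had -0.80, and -0.60 without the 2 livers farthest out, GNMT 3-month liver 1 and MAT1A 3-month liver 1.

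Some of the most variable genes owed their rank to a few livers. Dmbt1 was at 7.23 and 9.39 in GNMT 3-month livers 3 and 4, at 8.03 in GNMT 8-month liver 4 and at 5.98 in MAT1A 8-month liver 1, and between 3.09 and 4.53 in the other 16. Gdpd3, a lysophospholipase, was at 8.02 in GNMT 3-month liver 1 and at 7.70 and 8.23 in GNMT 8-month livers 2 and 3, and between 4.42 and 5.08 elsewhere. Cyp2c39, a cytochrome P450, was at 9.57 and 8.83 in GNMT 3-month livers 1 and 3 and between 5.00 and 5.97 elsewhere. Adipoq, the adipocyte hormone adiponectin, was at 5.15 in GNMT 3-month liver 1, at 5.13 and 5.47 in MAT1A 8-month livers 1 and 4 and between 2.76 and 3.83 elsewhere. None of these genes joined a module. Lead genes of different modules were partly correlated, Cish and Onecut1 at 0.75, Egr1 and Gadd45a at 0.70, Lcn2 and S100a9 at 0.65 and Gadd45a and Ppp1r3c, a glycogen-targeting subunit of protein phosphatase 1, at -0.71. Lcn2 had correlations between -0.38 and 0.22 with the other 8.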

How the data were processed

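Livers of 20 wild type mice, 5 in each of 4 groups defined by cohort and age, were measured on Affymetrix whole-genome mouse arrays. The authors deposited log2 values made with GCOS and RMA, per the labels, and the 2 cohorts lie on different scales. A second deposited table holds the authors' own comparisons of knockout with wild type and was not used.

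Of 45101 probe sets, 34958 were assigned to 1 gene, 932 to several and 9211 to none, and those of 1 gene were averaged to give 18194 genes with no filter on low values. Residuals were values minus the group mean. Slopes on Lcn2, Dbp and Scd1 were fitted with limma 3.58.1 (R 4.3.3), with the 4 groups as terms, and p-values were adjusted by Benjamini-Hochberg over 18193 genes, called at 0.05. The code was checked on simulated data. The 3 genes were set against each other by permutation within groups (scipy 1.17.1), exact within each cohort with 14400 orders. The 100 most variable genes were clustered by average linkage on 1 minus Pearson r and cut at 0.4. The 33 gene lists held 715 entries, of which 626 were measured.

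Genes were named by rule: the 3 starting genes, the 40 most variable, up to 15 called genes in each direction for each starting gene, module members, the members of the clock, acute phase and fatty acid synthesis lists, and up to 5 of each other list. Other genes, and the module genes used to describe correlations, were chosen after their values were seen. The members and lists were chosen with earlier results of these data known. The labels name separate samples, and p-values measure the spread between them. Promoters came from RefSeq (GRCm38.p6). Alternatives were the brightest probe set, a level filter, quantile normalization, median centring, a replicate block, a 3′ to 5′ covariate, another prior, subsets of arrays and leaving out each array.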

Additional observations from a re-analysis of the deposited data

Results flagged for a closer look

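In 42 genes with values given for each liver, 168 groups of 5 livers were searched for a highest or lowest liver whose gap to its neighbour exceeded Dixon's 95% critical value of 0.71 of the group's range. This happened in 12 groups. Chance flags about 1 in 20 groups when genes are independent and not chosen by their values. These genes were chosen partly for their spread or their correlations, so the count tests nothing. No explanation was tested.

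MAT1A 3-month liver 1, whose profile lay closer to the 8-month livers, was far from the other 4 of its group for 4 genes. Cyp4a14 was at 7.8 (the others 4.83 to 5.47), Cyp2c38 at 9.25 (8.45 to 8.61), Cyp7b1 at 9.08 (9.78 to 9.85) and Fos at 5.51 (7.9 to 8.83). MAT1A 8-month liver 1 was far from its group for the STAT5 targets Cish, at 10.28 (6.91 to 7.39), and Socs2, at 7.03 (5.13 to 5.42), and for Acly, at 6.95 (7.43 to 7.59). GNMT 3-month liver 1 was high for Adipoq, at 5.15 (2.84 to 3.29), Gdpd3, at 8.02 (4.48 to 5.04), and C6, at 11.36 (11.02 to 11.11). GNMT 3-month liver 3 was low for Moxd1, at 8.63 (10.91 to 11.43), and GNMT 8-month liver 4 was low for Fasn, at 11.34 (11.85 to 12.03).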

How the results depend on the processing

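In place of 63, the number of genes called with Lcn2 was 40 in the GNMT cohort alone, 27 in the MAT1A cohort alone, 32 without the 2 livers farthest out for Lcn2 (22, 18 and 26 of the 63) and 24 to 72 with 1 liver left out (24 without MAT1A 3-month liver 5, 36 without GNMT 3-month liver 1). In settings added after the data were seen, the number was 2 without the 4 livers of highest Lcn2, 25 in the 3-month and 0 in the 8-month livers. With the replicate number as a block 37 genes were called, and r was -0.36 for Lcn2 and Scd1, -0.20 for Lcn2 and Dbp and -0.14 for Dbp and Scd1. Residuals of same-numbered livers had correlations of -0.131 to 0.252 in 30 pairs, 5 of them over 0.1, so the numbers were not taken to pair the livers. In the 8-month livers 15 called slopes had the other sign, namely Aacs 0.0899, Albfm1 0.0490, Armcx4 -0.172, Atg9b -0.0073, Atp11a -0.0161, C4bp -0.0183, Ces1e 0.239, Ces1f 0.0139, Col27a1 0.191, Hbb-b2 -0.0062, Me1 0.0910, Oasl1 0.0354, Prtn3 -0.0933, Reck 0.0431 and Saa3 -0.102. The 0 calls with Dbp became 3 with the brightest probe set, 1 with quantile normalization and 0 to 2 with 1 liver left out, and the 0 calls with Scd1 became 3 in the MAT1A cohort and 0 to 1 with 1 liver left out. The correlation of Lcn2 with Scd1 was -0.653 to -0.177 with 1 liver left out, 0.207 in the GNMT cohort and 0.147 without the 4 livers of highest Lcn2. That of Lcn2 with Dbp was -0.190 to 0.230 with 1 liver left out, 0.0151 with the brightest probe set, 0.0283 after quantile normalization, 0.721 in the MAT1A cohort, 0.120 without those 4 livers and 0.0108 in the 3-month livers. That of Dbp with Scd1 was -0.322 to 0.0322 with 1 liver left out, 0.0948 in the GNMT cohort, 0.227 without those 4 livers and 0.114 in the 8-month livers. With a scaled median absolute deviation 104 in place of 190 genes reached 0.5 and 14 in place of 30 reached 1, against 174 to 197 and 20 to 32 with 1 liver left out. The modules numbered 9 to 14 over all settings and 9 to 13 with 1 liver left out, and with the brightest probe set Lcn2 kept 2 of its 16 partners. The causes were not tested. Dim probe sets, such as those of Per3, limit what their correlations show.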
